A study of Rattus norvegicus with 24 samples.

Results

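The 10 genes described here are genes of platelet-derived growth factor (PDGF) and fibroblast growth factor (FGF) signaling, followed through rat liver constructs in culture. The genes were the ligands Pdgfa, Pdgfb, Pdgfc, Fgf2 and Fgf21 and the receptors Pdgfra, Pdgfrb, Fgfr1, Fgfr2 and Fgfr4, chosen by name as members of the pathways. Earlier results of these data were known when the genes were chosen. A probe belonged to a gene where the array's annotation gave it that symbol. Of the 10 genes, 8 had a probe, 1 each, of 13337 genes with a probe, and 7 were tested. Pdgfrb and Fgfr1 were not analysed here.

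RNA came from Sprague Dawley rats and was measured on RatRef-12 BeadChips, glass arrays of short oligonucleotide probes whose brightness follows the amount of a transcript. The 5 groups were cadaveric liver (n = 4), hepatocytes freshly isolated by collagenase perfusion and a Percoll spin (n = 4), and constructs after 2 (n = 4), 15 (n = 4) and 28 (n = 3) days. A construct was a caudate lobe of rat liver that had been cleared of its cells with sodium dodecyl sulfate and DNase, refilled with cells of such an isolation and perfused in a bioreactor with Williams' Medium E holding fetal bovine serum, insulin and dexamethasone. No group carried a transgene or received a test agent, and the labels give no age. The labels call the construct cells hepatocytes, yet such an isolation is enriched for hepatocytes rather than free of other cells, and the labels do not say whether the constructs of different days were seeded from different donor rats, so that a p-value speaks only of the scatter among the samples at hand.

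The 24 arrays held 5 pairs of technical duplicates, which were averaged to give 19 samples. On each array between 42.1 and 50.7% of the probes were above background by the scanner's detection p-value (under 0.05), and the lowest log2 level so called was 4.86 to 5.23. Levels below are log2 of the normalized intensity, and no probe's level is set against another's. Duplicate arrays differed by at most 0.50 for any of the 8 genes (Fgfr2) and by at most 0.14 for Pdgfa. Of 13 hepatocyte markers with a probe, Apob alone was not above background in any group, and the summed linear level of the 13 was 131580 to 167394 in the constructs against 218008 to 225218 in cadaveric liver and 234098 to 245538 in isolated hepatocytes.

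PDGF ligands are dimers of 2 chains that draw together 2 receptor chains, whose kinase domains then phosphorylate each other and pass the signal to phospholipase C gamma, PI3 kinase and the RAS and MAP kinase cascade. In liver the PDGF receptors are known above all from stellate cells, portal fibroblasts and myofibroblasts, on which PDGF acts as a strong mitogen, while the ligands come from platelets, macrophages, endothelium, biliary cells and injured hepatocytes. FGF ligands of the paracrine kind, such as Fgf2, need heparan sulfate to bind their receptors. The endocrine kind, such as Fgf21, bind through a Klotho protein instead, and Fgfr4 with beta-Klotho is the hepatocyte's receptor for the gut hormone that holds back bile acid synthesis.

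Across days 2, 15 and 28, 5 of the 7 tested genes changed (limma's F test, adjusted p under 0.05), beside 59.7% of the 8283 genes tested. These were Pdgfa, Pdgfra, Fgfr2, Fgf2 and Fgfr4, whereas Pdgfc and Fgf21 did not pass. Between day 2 and day 28, 5 genes were higher (Pdgfa, Pdgfra, Fgf2, Fgfr2 and Pdgfc), beside 22.3% of all genes higher, and none was lower, beside 35% of all genes lower. Pdgfra and Fgf2 were above background on 0 of 6 day 2 arrays and were tested only through days 15 and 28. They could hardly come out lower, and the count and the median rest partly on them. The same holds for genes of the lists below that were at background on day 2. The median log2 fold change of the 7 was 1.19, or 1.09 with genes at background held at their bound, against -0.15 over all genes. Taken by steps, 2 genes were higher on day 15 than on day 2 (Pdgfa and Fgfr2), beside 21.4% of all genes higher and 27.7% lower. The other 2 steps up came between day 15 and day 28 (Pdgfra and Fgfr2), a comparison in which only 4.36% of all genes were higher and 4.82% lower. The 3 comparisons between days share samples.

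**Figure D1:**
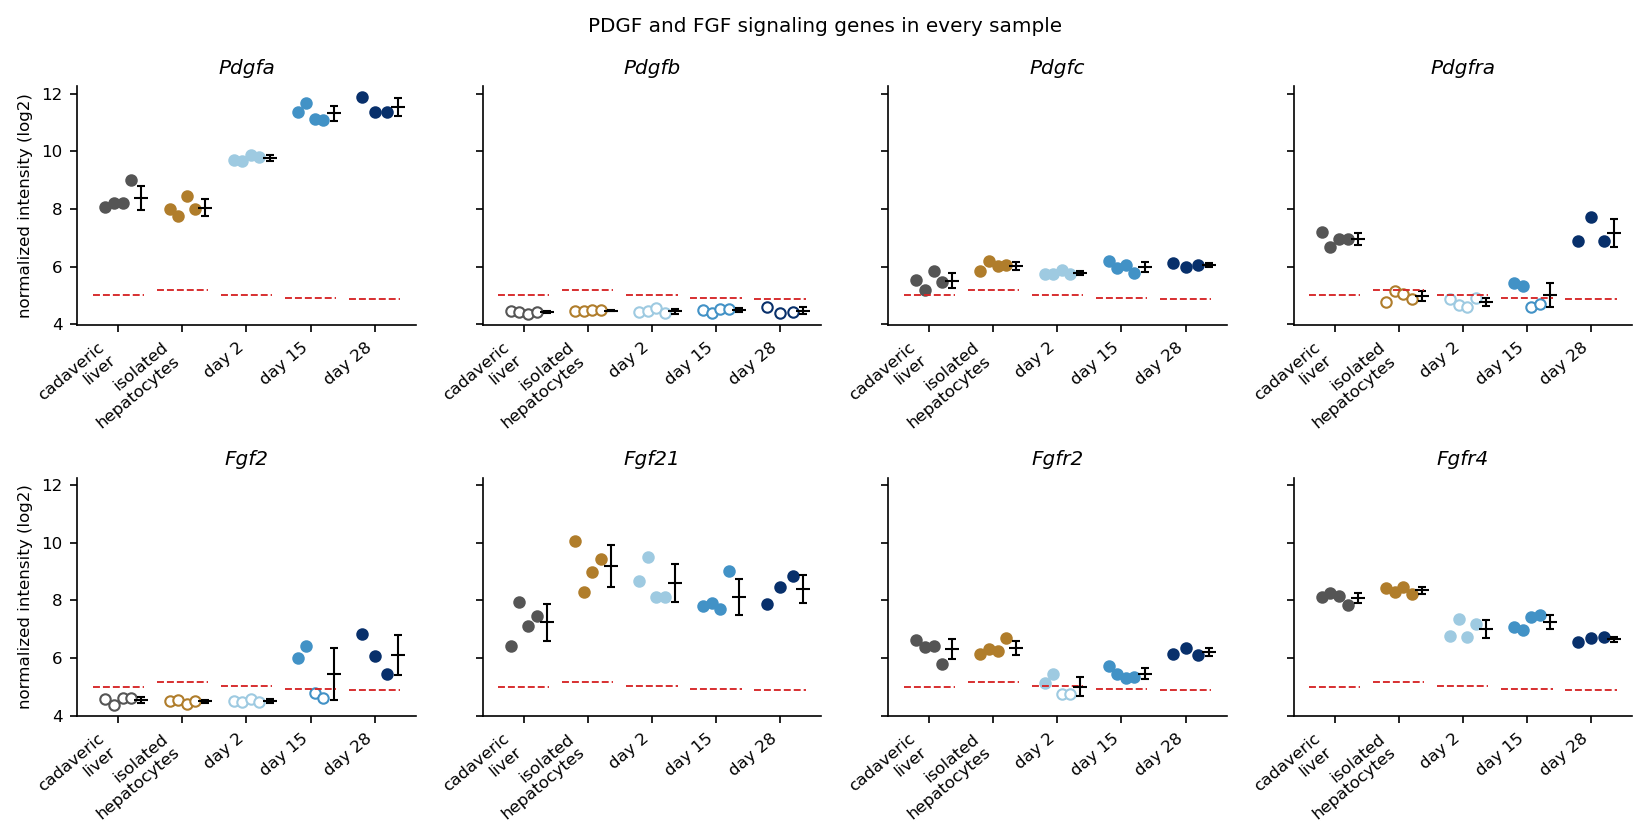
Log2 level (vertical axis, log2 of the normalized intensity) of each of the 8 genes in each of the 19 samples, by group, with the mean and SD as black bars, open circles for samples not above background and a red dashed line at the mean lowest level called detected. Pdgfa stepped up from day 2 (8.05 ± 0.28 in isolated hepatocytes to 11.54 ± 0.30 on day 28), Pdgfra was above background in every sample of cadaveric liver and of day 28, and Pdgfb was above it in no sample.

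Pdgfa encodes the PDGF A chain, a ligand of the alpha receptor. Its level was 8.07, 8.20, 8.21 and 8.99 in the 4 cadaveric livers and 8.01, 7.75, 8.43 and 8.01 in the 4 samples of isolated hepatocytes. In the constructs it was 9.71, 9.65, 9.89 and 9.80 on day 2, then 11.37, 11.66, 11.14 and 11.08 on day 15, then 11.89, 11.37 and 11.36 on day 28. Every construct therefore lay above every reference sample, and every construct of days 15 and 28 above every construct of day 2. The rise from day 2 to day 15 was 2.93-fold (log2 1.55, SE 0.15, adjusted p = 1.79e-05), and that from day 2 to day 28 was 3.43-fold (log2 1.78, SE 0.16, adjusted p = 9.15e-06). Between days 15 and 28 the difference was 0.23 on the log2 scale (95% interval -0.13 to 0.59, adjusted p = 0.411), and the groups overlapped.

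Pdgfa was also higher than in cadaveric liver at each day, by 2.63-fold on day 2 (adjusted p = 5.06e-06), 7.70-fold on day 15 (adjusted p = 3.75e-10) and 9.02-fold on day 28 (adjusted p = 4.57e-10). Against isolated hepatocytes, the cells that most resemble the seeded ones, it was 3.28-fold higher on day 2 (adjusted p = 4.5e-07) and 11.3-fold higher on day 28 (adjusted p = 1.05e-10). Isolated hepatocytes and cadaveric liver themselves differed by -0.32 on the log2 scale (adjusted p = 0.265). The order of the group means was therefore isolated hepatocytes, cadaveric liver, day 2, day 15 and day 28, in which the first pair and the last pair of neighbours did not differ beyond their spread.

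The start regions of the 4 genes that rose more than 2-fold from day 2 to day 28, and further on that of Fgf21, are shown so that the genes can be compared by sequence. They are the bases upstream of the outer start of each gene in RefSeq (assembly GRCr8), where 8 of the 10 genes had an entry. Pdgfa lies on the plus strand (chr12:20759116-20759365, 250 bases), Fgf2 on the plus strand (chr2:122164204-122164453, 250 bases), Pdgfra on the minus strand (chr14:33408605-33408766, 162 bases) and Fgfr2 on the minus strand (chr1:194280915-194281164, 250 bases), each printed 5′ to 3′ along the gene. Capitals mark matches to the motifs searched on both strands, which were the TATA box TATAAA, the GC box GGGCGG, the EGR1 site GCGNGGGCG, the AP-1 site TGANTCA, the CRE TGACGTCA, the C/EBP-ATF response element TGATGNAA, the E-box CACGTG and the CArG box.
Pdgfa: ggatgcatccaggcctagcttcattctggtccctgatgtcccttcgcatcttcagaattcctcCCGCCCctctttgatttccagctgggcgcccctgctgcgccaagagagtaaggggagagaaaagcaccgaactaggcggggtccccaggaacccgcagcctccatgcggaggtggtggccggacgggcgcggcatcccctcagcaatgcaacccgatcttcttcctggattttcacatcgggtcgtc
Pdgfra: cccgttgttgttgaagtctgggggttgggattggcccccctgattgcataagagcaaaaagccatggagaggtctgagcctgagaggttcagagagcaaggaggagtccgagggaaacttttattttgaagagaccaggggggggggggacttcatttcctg
Fgf2: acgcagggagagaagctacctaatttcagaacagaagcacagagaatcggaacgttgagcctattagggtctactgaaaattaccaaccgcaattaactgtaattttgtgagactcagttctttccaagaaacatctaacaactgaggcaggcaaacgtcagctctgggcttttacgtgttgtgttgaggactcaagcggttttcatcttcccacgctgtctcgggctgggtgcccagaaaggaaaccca
Fgfr2: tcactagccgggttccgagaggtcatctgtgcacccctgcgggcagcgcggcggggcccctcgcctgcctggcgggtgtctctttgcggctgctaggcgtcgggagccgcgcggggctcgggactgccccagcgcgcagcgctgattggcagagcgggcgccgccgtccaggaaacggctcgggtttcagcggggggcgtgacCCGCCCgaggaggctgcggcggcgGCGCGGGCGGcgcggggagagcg
The Pdgfa window held 1 GC box, on the minus strand, beginning 187 bases before the start, a motif present in 30.5% of 33469 windows of 250 bases. The Fgfr2 window held a GC box on the minus strand at 47 and, at 23, an EGR1 site that overlaps a GC box at 19, a site found in 4.29% of windows. None of the motifs was in the windows of Fgf2 and Pdgfra, the second of which is shorter than those behind that share. A match describes letters in a window and not a bound site.

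Pdgfb encodes the PDGF B chain, the main stellate cell mitogen and a ligand of both receptors. Its probe was not above background on any of the 24 arrays, with levels between 4.36 and 4.60, and it was not tested. Pdgfc, a ligand that is secreted with a CUB domain and acts on the alpha receptor once cut, was low but above background in every sample. It lay between 5.19 and 5.84 in cadaveric liver, 5.86 and 6.20 in isolated hepatocytes, 5.73 and 5.89 on day 2, 5.76 and 6.18 on day 15, and 5.98 and 6.11 on day 28. The groups of constructs spanned less than 0.5 on the log2 scale. Against cadaveric liver Pdgfc was 1.43-fold higher in isolated hepatocytes (SE 0.12, adjusted p = 0.00418), 1.39-fold on day 15 (adjusted p = 0.00253) and 1.45-fold on day 28 (adjusted p = 0.0017).

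Among the constructs the F test did not pass for Pdgfc (adjusted p = 0.0765), and day 28 was 1.21-fold above day 2 (adjusted p = 0.0426). That call was lost without any 1 of the 3 samples of day 28 or without day 2 replicate 1, 2 or 4, with adjusted p up to 0.127. When arrays were scaled to a common median instead of being quantile normalized, the difference between isolated hepatocytes and cadaveric liver was 0.25 on the log2 scale (adjusted p = 0.231).

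Pdgfra encodes the alpha receptor, which binds all the PDGF chains above. It was 7.20, 6.68, 6.97 and 6.95 in cadaveric liver and not above background in any isolated hepatocyte sample (4.76, 5.15, 5.06 and 4.88) or day 2 construct (4.87, 4.67, 4.61 and 4.90). On day 15 it was above background in replicates 1 and 2 (5.43 and 5.31) and not in replicates 3 and 4 (4.59 and 4.71). On day 28 it was 6.89, 7.73 and 6.87, above every other construct and overlapping with cadaveric liver. The rise from day 2 to day 28 was at least 4.40-fold (adjusted p = 1.86e-05), where "at least" puts each array's detection floor in place of a level below background. From day 15 to day 28 it was 4.45-fold (log2 2.15, SE 0.25, adjusted p = 0.000679), while day 15 against day 2 did not pass (adjusted p = 0.394).

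Relative to cadaveric liver, Pdgfra was at least 3.43-fold lower in isolated hepatocytes (adjusted p = 5.13e-07), at least 3.79-fold lower on day 2 (adjusted p = 2.79e-08) and 3.83-fold lower on day 15 (adjusted p = 1.59e-07). On day 28 it differed from cadaveric liver by 0.22 (95% interval -0.24 to 0.67, adjusted p = 0.415). With median scaling, which moved the median of all genes in that comparison by 0.30, the difference was 0.74 and passed the test (adjusted p = 0.00884). In RNA from a mixed sample, more cells of a type and more RNA per cell cannot be told apart.

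Markers of the cells known to carry Pdgfra moved with it in part. The summed linear level of the 11 stellate cell markers with a probe, of 14 listed, was 3047 to 4259 in cadaveric liver, 516 to 731 in isolated hepatocytes, 2124 to 3100 on day 2, 6967 to 18606 on day 15 and 15440 to 20347 on day 28. That of 15 myofibroblast markers, of 16 listed, was 14357 to 18716 in cadaveric liver and 9354.5 to 11880.5 in isolated hepatocytes. In the constructs it was 16111 to 26374 on day 2, 30659 to 89487 on day 15 and 63283 to 95377 on day 28. In isolated hepatocytes 7 of the 15 were not above background on any array, so the sum there came from the other, brighter markers. Among the defining markers, Gfap and Rgs5 stayed at background on day 28 and Col1a1, Col3a1, Loxl1, Lum and Postn were at background on day 2. From day 2 to day 28, 8 of 9 tested stellate markers and 14 of 15 myofibroblast markers were higher and none lower, beside 22.3% of all genes higher and 35% lower. Markers at background throughout day 2 were tested only through later days. Portal fibroblast markers, 6 of 9 with a probe, summed to 521 to 826 in cadaveric liver, 554 to 794 on day 2, 820 to 1063 on day 15 and 789 to 949 on day 28, with Eln and Msln at background on all 3 days. Dcn, a proteoglycan of fibroblasts and stellate cells, rose at least 7.95-fold (adjusted p = 8.4e-06), Lum, its relative lumican, at least 6.19-fold (adjusted p = 9.52e-07) and the fibrillar collagen gene Col3a1 at least 49.8-fold.

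The 2 constructs of day 15 with Pdgfra above background were those with the higher marker sums (12731 and 18606 for stellate and 66650 and 89487 for myofibroblast markers, against 8609 and 6967 and 31458 and 30659). The sums of day 15 replicate 2 nevertheless reached those of day 28, at a Pdgfra level of 5.31 against 6.87 or more. Single markers within the sums had unlike courses. Dcn was at background on every array of day 15 (mean 4.52) and stood at 8.02 on day 28, and Lum went from 4.92 to 7.66. Col3a1 was already at 9.12 on day 15, against 10.67 on day 28, and Loxl1 at 7.30 against 9.08. The part of the cells that carry these markers in the Pdgfra result was not tested.

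**Figure D2:**
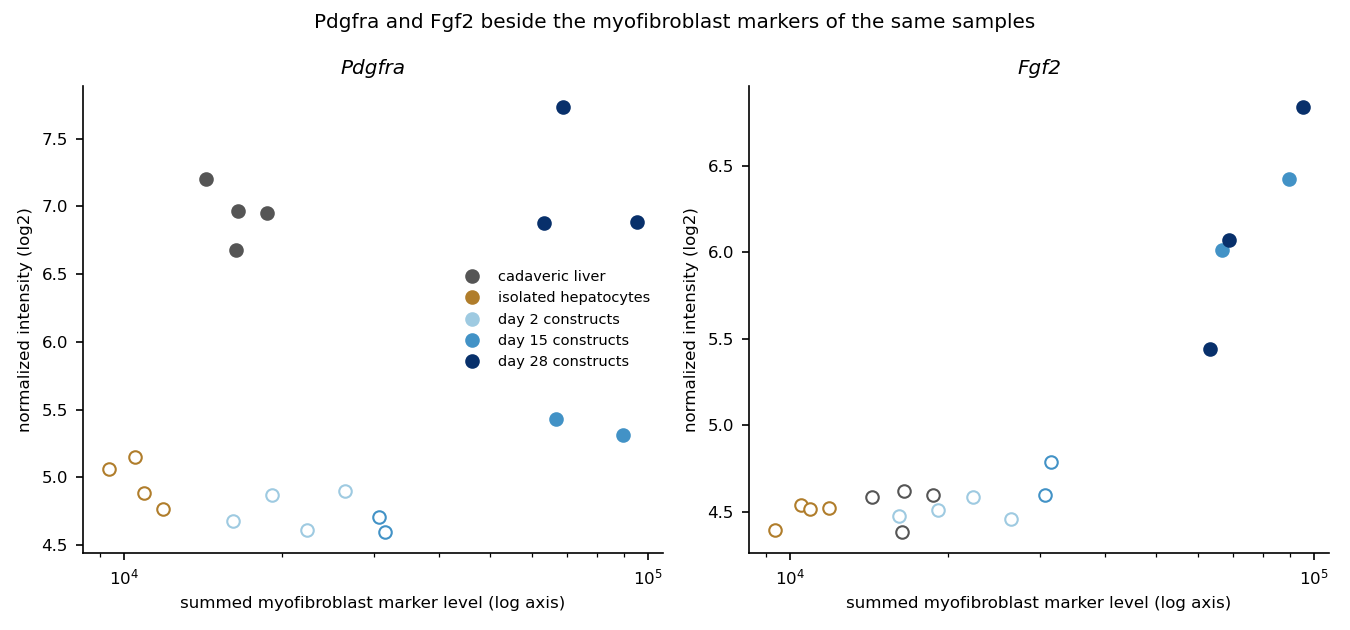
Log2 level of Pdgfra and of Fgf2 (vertical axes) against the summed linear level of 15 myofibroblast markers (horizontal log axis) in the 19 samples, coloured by group. The day 28 constructs lie at the upper right for Pdgfra, while for Fgf2 day 15 replicates 1 and 2 (6.01 and 6.42) lie among them (5.44 to 6.84), and the cadaveric livers have Pdgfra at 6.68 to 7.20 with marker sums below those of day 15.

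Fgf2 encodes basic FGF, a ligand without a classical signal peptide that acts on mesenchymal, endothelial and epithelial cells. It was at background in all 12 samples of cadaveric liver, isolated hepatocytes and day 2, with levels between 4.38 and 4.62. On day 15 replicates 1 and 2 were at 6.01 and 6.42 and replicates 3 and 4 were not above background (4.79 and 4.60). On day 28 it was 6.84, 6.07 and 5.44, above background in each construct and above all samples outside the late constructs. The difference between day 28 and day 2 was at least 2.13-fold (adjusted p = 0.00758), and that between day 28 and cadaveric liver at least 2.17-fold (adjusted p = 0.000745).

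The same pair of day 15 constructs that had Pdgfra above background thus had Fgf2, and day 15 was the group of widest spread (5.46 ± 0.90, SD, n = 4). Day 15 was at least 1.35-fold above day 2 in the mean, a difference that missed the threshold (adjusted p = 0.0673) and passed without day 15 replicate 3 (adjusted p = 0.0377) or 4 (adjusted p = 0.0207). Day 15 was at least 1.38-fold above cadaveric liver (adjusted p = 0.0206), a call lost without day 15 replicate 1 (adjusted p = 0.0767) or 2 (adjusted p = 0.0918). The F test over the days (adjusted p = 0.0187) did not pass without day 28 replicate 1 (adjusted p = 0.0523).

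Fgfr2 encodes an FGF receptor with an epithelial and a mesenchymal splice form, which a probe named by its symbol does not separate. Its level was 6.64, 6.40, 6.42 and 5.80 in cadaveric liver and 6.15, 6.32, 6.25 and 6.70 in isolated hepatocytes. It was lower in the constructs of day 2, at 5.13 and 5.44 in replicates 1 and 2 and at background (4.74 and 4.74) in replicates 3 and 4. It was then 5.73, 5.46, 5.31 and 5.36 on day 15 and 6.15, 6.35 and 6.10 on day 28, within the range of cadaveric liver. The course was thus a fall and a return, with day 28 above every construct of days 2 and 15.

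Against isolated hepatocytes, Fgfr2 was 2.53-fold lower on day 2 (log2 -1.34, adjusted p = 4.21e-06) and 1.85-fold lower on day 15 (adjusted p = 0.000334), and on day 28 the difference was -0.15 (adjusted p = 0.51). Day 28 was 2.28-fold above day 2 (log2 1.19, SE 0.17, adjusted p = 0.000172) and differed from cadaveric liver by -0.11 (95% interval -0.53 to 0.30, adjusted p = 0.644). Each step passed as well, by 1.37-fold from day 2 to day 15 (adjusted p = 0.0364) and by 1.67-fold from day 15 to day 28 (adjusted p = 0.0254). The first step was lost without day 2 replicate 3 or 4 or day 15 replicate 1 or 2 (adjusted p 0.0638 to 0.104), and the second without day 15 replicate 3 or 4 or any 1 sample of day 28 (adjusted p 0.054 to 0.0825). With median scaling the difference from isolated hepatocytes on day 15 was -0.39 (adjusted p = 0.0737) and on day 28 it turned to 0.48 (adjusted p = 0.0436).

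Fgfr4, the main FGF receptor of hepatocytes, kept to a lower level in the constructs throughout. It was 8.11, 8.25, 8.17 and 7.85 in cadaveric liver and 8.43, 8.28, 8.48 and 8.22 in isolated hepatocytes, and these references did not differ beyond their spread (adjusted p = 0.216). In the constructs it was 6.78, 7.34, 6.74 and 7.18 on day 2, 7.08, 6.98, 7.41 and 7.48 on day 15 and 6.56, 6.70 and 6.72 on day 28. No construct reached a reference sample. Compared with isolated hepatocytes Fgfr4 was 2.54-fold lower on day 2 (adjusted p = 2.16e-07), 2.16-fold lower on day 15 (adjusted p = 2.19e-06) and 3.23-fold lower on day 28 (log2 -1.69, adjusted p = 2.64e-08).

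Among the constructs the F test passed for Fgfr4 (adjusted p = 0.0325), whereas no pair of days did, the widest difference being -0.58 between days 28 and 15 (SE 0.17, adjusted p = 0.0553). The F test did not pass without day 15 replicate 3 or 4 or any 1 sample of day 28 (adjusted p 0.0627 to 0.102). The pair of days 28 and 15 passed without day 15 replicate 2 (adjusted p = 0.0297). Fgfr2 and Fgfr4 therefore both lay under isolated hepatocytes on day 2 and had unlike levels relative to them on day 28, a difference between the genes that was not tested.

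The 6 genes with a probe of a list of the Fgfr4 pathway and bile acid synthesis, Fgfr4 among them, were all lower on day 28 than in cadaveric liver (6 of 6), beside 27.6% of all genes lower. Cyp7a1, which sets the pace of the classical route to bile acids, had mean levels of 12.88 in cadaveric liver, 12.17 in isolated hepatocytes, 10.51 on day 2, 6.25 on day 15 and 5.78 on day 28. From day 2 to day 28 it fell by 4.73 on the log2 scale (SE 0.41, adjusted p = 6.48e-06). Cyp8b1, which makes cholic acid, moved the other way among the constructs and rose by 3.24 (SE 0.26, adjusted p = 5.01e-06), from 8.33 on day 2 to 11.57 on day 28. Nr0b2, the corepressor SHP, stood at 9.09 in isolated hepatocytes, 7.87 in cadaveric liver and 5.06, 5.42 and 5.21 on days 2, 15 and 28. The 2 enzymes of the list thus went in opposite directions while Fgfr4 stayed low.

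Fgf21 is a hormone that the liver releases on fasting, amino acid shortage and stress of the endoplasmic reticulum. It was 6.41, 7.96, 7.12 and 7.46 in cadaveric liver and 10.05, 8.30, 9.001 and 9.43 in isolated hepatocytes, groups that did not overlap. In the constructs it was 8.68, 9.50, 8.12 and 8.12 on day 2, 7.80, 7.92, 7.69 and 9.04 on day 15 and 7.89, 8.48 and 8.86 on day 28. These days overlapped and the F test did not pass (adjusted p = 0.482). Day 15 differed from day 2 by -0.49 on the log2 scale (95% interval -1.30 to 0.31), an interval that still holds changes of over 2-fold downward.

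Against cadaveric liver Fgf21 was 3.89-fold higher in isolated hepatocytes (log2 1.96, SE 0.41, adjusted p = 0.00169) and 2.59-fold higher on day 2 (adjusted p = 0.00727). Day 15 gave 0.88 (adjusted p = 0.0756), which passed without cadaveric liver replicate 2 (adjusted p = 0.0359) and with median scaling (1.31, adjusted p = 0.006). The 1.17 of day 28 (SE 0.44, adjusted p = 0.0306) was lost without cadaveric liver replicate 1 or 3 or day 28 replicate 2 or 3 (adjusted p 0.0578 to 0.125). Relative to isolated hepatocytes Fgf21 was 2.12-fold lower on day 15 (adjusted p = 0.0283), a call lost without isolated hepatocyte replicate 1 or 4 or day 15 replicate 1, 2 or 3 (adjusted p 0.0616 to 0.109) and with median scaling (-0.53, adjusted p = 0.239).

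The start region of Fgf21 (minus strand, chr1:105221377-105221626, 250 bases upstream, GRCr8) is printed because, of the 5 windows shown, it held the most of the motifs.
Fgf21: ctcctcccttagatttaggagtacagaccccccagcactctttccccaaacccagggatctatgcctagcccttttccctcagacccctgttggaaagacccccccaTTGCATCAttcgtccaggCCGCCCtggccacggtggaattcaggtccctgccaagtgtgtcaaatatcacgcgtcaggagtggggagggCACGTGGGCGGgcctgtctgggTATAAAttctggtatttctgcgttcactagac
From the far end, the capitals mark a C/EBP-ATF response element on the minus strand, which begins 143 bases before the start, a GC box at 125, an E-box at 54 with a GC box that overlaps it at 49, and a TATA box at 32. The response element, through which the stress factor ATF4 is known to act on Fgf21, was in 3.4% of all windows of that length, the TATA box in 12.9% and the E-box in 5.59%. No measurement of binding or methylation was made.

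Of 13 tested genes of a list tied to Fgf21 by fasting lipid use or the ATF4 stress response, 7 were higher in isolated hepatocytes than in cadaveric liver and none lower, beside 11.3% of all genes higher and 11.3% lower. The median log2 fold change of the 13 was 0.58, against 0.04 over all genes. Chac1, a glutathione-degrading enzyme under ATF4, had mean levels of 5.93 in cadaveric liver, 9.29 in isolated hepatocytes, 6.99 on day 2 and 6.24 on day 28, and was higher in isolated hepatocytes by 3.36 (adjusted p = 4.48e-08). Ddit3, the stress factor CHOP, was higher by 2.04 (adjusted p = 1.35e-07), and Pdk4, which restrains pyruvate oxidation on fasting, by 2.47 (adjusted p = 3.06e-05). From day 2 to day 28, 8 of the 13 were lower and none higher, beside 35% lower over all genes. Angptl4, a fasting-induced inhibitor of lipoprotein lipase, fell by 1.37 (adjusted p = 0.000717), Cyp4a1, a fatty acid hydroxylase, by 1.13 (adjusted p = 0.0015), Pdk4 by 1.10 (adjusted p = 0.00439) and Chac1 by 0.75 (adjusted p = 0.0163). Fgf21 itself had a difference of -0.20 there (adjusted p = 0.685).

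**Figure D3:**
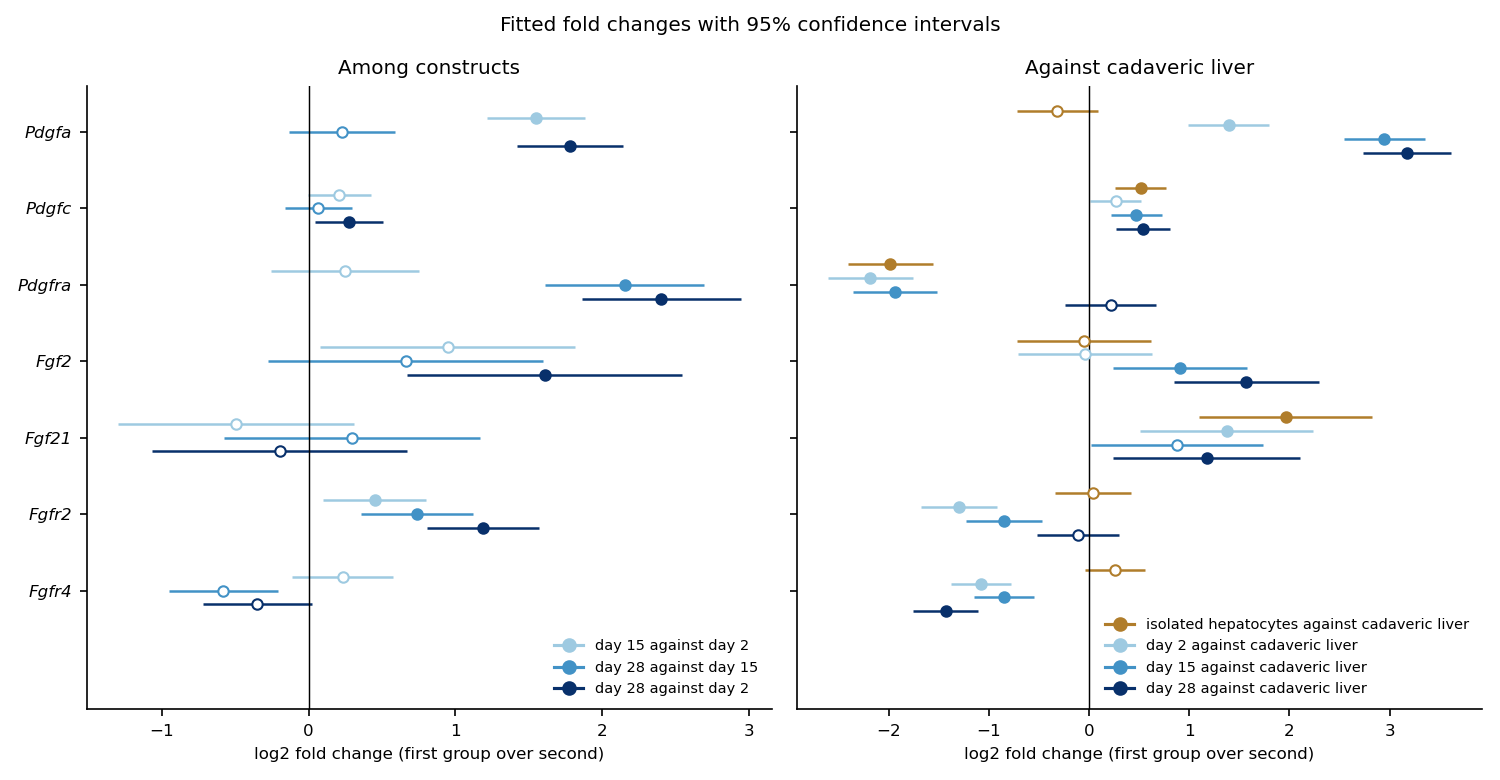
Log2 fold change (horizontal axis) with its 95% confidence interval for the 7 tested genes, among the days of culture on the left and against cadaveric liver on the right, with filled points for an adjusted p under 0.05 and open points otherwise. Pdgfa is the gene with a filled point above 0 on all 3 days against cadaveric liver and no filled point for day 28 against day 15, and Fgfr4 has filled points below 0 on all 3 days.

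Set against cadaveric liver, 2 of the 7 genes were higher (Pdgfc and Fgf21) and 1 lower (Pdgfra) in isolated hepatocytes, beside the 11.3% each way over all genes. On day 2, 2 were higher (Pdgfa and Fgf21) and 3 lower (Pdgfra, Fgfr2 and Fgfr4), beside 34.5% and 26.1%. On day 15, 3 were higher (Pdgfa, Pdgfc and Fgf2) and the same 3 lower, beside 31.4% and 26.5%. By day 28, 4 were higher (Pdgfa, Pdgfc, Fgf2 and Fgf21), beside 29.5%, and Fgfr4 alone was lower, beside 27.6%. The 4 higher genes are ligands, and the receptors of the 7 genes were lower or did not pass. With median scaling, however, Pdgfra was also higher on day 28 (adjusted p = 0.00884). The Fgf21 call of day 28 was lost without cadaveric liver replicate 1 or 3 or day 28 replicate 2 or 3. Fgf2, at background in both references, was tested only through days 15 and 28, so it could hardly come out lower than either. A difference between ligands and receptors was not tested.

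Set against isolated hepatocytes, 1 gene was higher on day 2 (Pdgfa) and 2 lower (Fgfr2 and Fgfr4), beside 32.6% and 25.7% over all genes. On day 15, 5 of the 7 passed in either direction, beside 62.6%, with Pdgfa and Fgf2 higher and Fgfr2, Fgfr4 and Fgf21 lower. The Fgf2 call there was lost without day 15 replicate 1 (adjusted p = 0.0547) or 2 (adjusted p = 0.0634). On day 28, 4 passed, beside 63.6%, with Pdgfa, Pdgfra (at least 3.98-fold, adjusted p = 7.29e-08) and Fgf2 (at least 1.93-fold, adjusted p = 0.000468) higher and Fgfr4 lower. The comparisons with one reference share its samples.

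The other genes of both pathways were counted from lists drawn up by role. Of 28 other ligands of the PDGF, VEGF and FGF families, 25 had a probe and 9 were tested, of which 6 were higher on day 28 than on day 2 and 1 lower, beside 22.3% and 35% of all genes. Pdgfd and Fgf12 were at background on day 2 and were tested only through later days, so they could hardly come out lower. The median log2 fold change of the 9 was 1.07, or 0.53 with genes at background held at their bound, against -0.15 over all genes. Vegfd, a growth factor for lymphatic vessels, stood at 5.10 in cadaveric liver, 4.89 on day 2, 5.64 on day 15 and 7.73 on day 28, a rise of 2.84 from day 2, where it was above background on 1 of 6 arrays (SE 0.35, adjusted p = 5.16e-05). Its relative Vegfc rose by 2.03 (adjusted p = 0.00018) and Vegfa, the ligand of endothelium, by 1.13 (adjusted p = 0.0169). Pdgfd, a ligand of the beta receptor, was at background in cadaveric liver, isolated hepatocytes and day 2 and rose at least 1.44-fold by day 28 (adjusted p = 0.000129).

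Of 9 other receptors tested, 5 were higher on day 28 than on day 2 and none lower, beside 22.3% and 35% over all genes (median 0.53 against -0.15). Nrp1, a coreceptor for VEGF and PDGF, had means of 8.54 in cadaveric liver, 5.94 in isolated hepatocytes, 5.23 on day 2, 6.51 on day 15 and 9.26 on day 28. It was lower in isolated hepatocytes than in cadaveric liver by 2.60 (adjusted p = 0.000384) and rose from day 2 to day 28 by 4.03 (SE 0.61, adjusted p = 0.000215). Pdgfrl, a protein like the extracellular part of a PDGF receptor, rose by 2.74 (adjusted p = 0.000872). Fgfr3, a further FGF receptor, had its highest mean on day 15, at 8.27 against 5.89 on day 2 and 7.03 on day 28. It rose from day 2 to day 15 by 2.37 (adjusted p = 0.000143) and fell by 1.23 from there to day 28 (adjusted p = 0.0477).

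Of 13 tested genes of heparan sulfate, the sugar chain that FGF ligands bind, 8 were higher on day 28 than on day 2 and 3 lower, beside 22.3% and 35% over all genes (median 0.43 against -0.15). Gpc3, a glypican of fetal liver that carries such chains, had means of 7.16 in cadaveric liver, 4.84 in isolated hepatocytes, 4.98 on day 2, 10.04 on day 15 and 12.64 on day 28, a rise of 7.66 from day 2, where it was above background on 3 of 6 arrays (SE 0.78, adjusted p = 1.8e-05). Sdc1, the syndecan of hepatocytes, rose by 1.10 (adjusted p = 0.000309). The sulfotransferases Ndst1 and Ndst2, which modify the chain, fell by 1.62 (adjusted p = 0.000219) and 0.53 (adjusted p = 0.00329), opposite to Gpc3 and Sdc1. Hpse, a further enzyme of the list, was at background on day 2 and rose at least 1.35-fold (adjusted p = 0.00127).

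Each of the 6 tested genes that process or bind PDGF ligands passed the test for day 28 against day 2, with 4 up and 2 down, beside 22.3% and 35% over all genes (median 1.21 against -0.15). Sparc, a matrix protein that binds the PDGF B chain, had means of 4.87 on day 2, 11.64 on day 15 and 12.91 on day 28 and rose by 8.04 from day 2, where it was above background on 2 of 6 arrays (SE 0.63, adjusted p = 4.34e-06). Plat, the tissue plasminogen activator that cuts Pdgfc, rose by 1.53 (adjusted p = 0.00769). Of the proprotein convertases, Pcsk6 rose by 1.09 (adjusted p = 0.00321) and Pcsk5 fell by 1.18 (adjusted p = 0.000497).

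Downstream of the receptors the counts lay near those of all genes for lower calls. Of 20 tested adaptors and enzymes next to the receptor, 7 rose and 8 fell from day 2 to day 28, beside 22.3% and 35% over all genes (median -0.12 against -0.15). Plcg2, a phospholipase C gamma better known from blood cells, rose by 1.89 (adjusted p = 6.99e-06), and the adaptor Nck2 by 1.77 (adjusted p = 4.3e-05). Ptpn11, the phosphatase SHP2, fell by 1.29 (adjusted p = 8.09e-06) and the adaptor Crk by 0.85 (adjusted p = 1.97e-05). Of 9 genes of the RAS, MAP kinase and AKT cascade, 1 was higher (Rras, by 0.80, adjusted p = 0.000418) and 3 lower (Braf, Akt2 and Nras, by 0.76, 0.65 and 0.44), beside the same 22.3% and 35%.

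Feedback inhibitors and early target genes were read as the genes that such signals are known to induce. Of 12 tested inhibitors, 4 rose and 1 fell from day 2 to day 28, beside 22.3% and 35% over all genes (median 0.03 against -0.15). Dusp6, the phosphatase of ERK, had means of 10.86 in cadaveric liver, 11.62 in isolated hepatocytes, 7.34 on day 2, 9.60 on day 15 and 10.21 on day 28 and rose by 2.88 (SE 0.34, adjusted p = 4.06e-05). Spry2, a Sprouty inhibitor of receptor kinases, was at background on day 2 and rose at least 1.56-fold (adjusted p = 0.000418). Dusp6 thus had its lowest mean on day 2, as Fgfr2 had, whereas Spry2 was also at background in isolated hepatocytes.

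Of 13 tested early target genes, 8 rose and 2 fell from day 2 to day 28, beside 22.3% and 35% over all genes (median 0.56 against -0.15). In isolated hepatocytes 8 of 14 were higher than in cadaveric liver and 1 lower, beside 11.3% each way (median 1.54, or 1.37 with genes at their bound, against 0.04). The transcription factor Egr1 had means of 8.73 in cadaveric liver, 13.13 in isolated hepatocytes, 7.51 on day 2, 9.27 on day 15 and 9.37 on day 28, which was a rise of 1.86 from day 2 (SE 0.16, adjusted p = 6.18e-06). Fos, a part of the AP-1 factor, was higher in isolated hepatocytes than in cadaveric liver by 4.78 (SE 0.40, adjusted p = 4.08e-08), at background on day 2 and at least 2.30-fold higher on day 28 than on day 2 (adjusted p = 1.09e-06). Ccnd1, the cyclin of the first growth phase, rose by 2.89 from day 2 (adjusted p = 1.84e-05) and was lower in isolated hepatocytes than in cadaveric liver by 1.13 on the log2 scale. Myc went the other way, higher in isolated hepatocytes by 2.40 (adjusted p = 6.71e-08) and lower on day 28 than on day 2, where it fell by 0.92 (adjusted p = 2.18e-05).

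**Figure D4:**
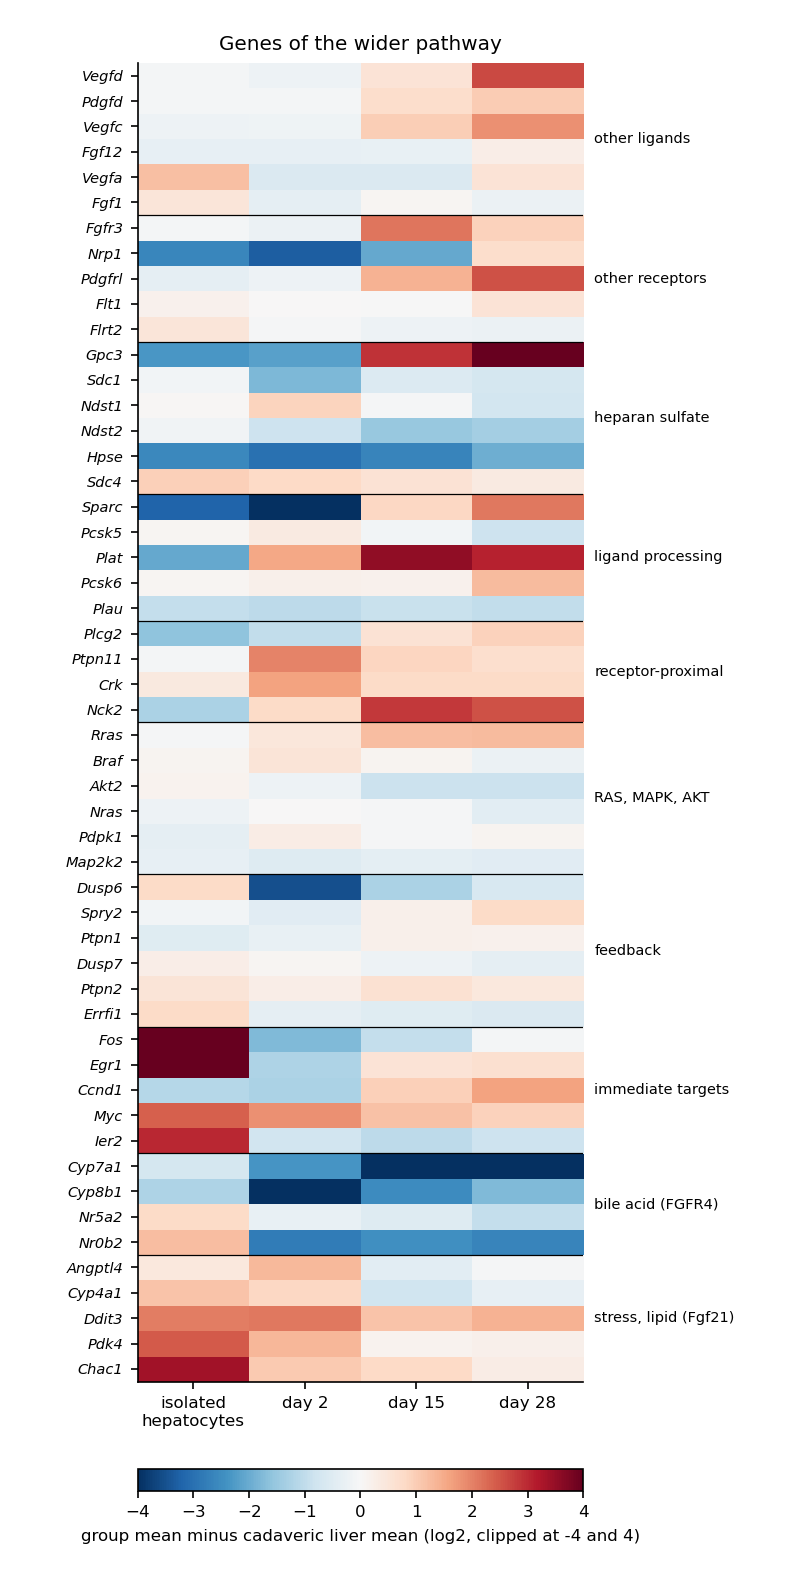
Mean log2 level of each group minus that of cadaveric liver (colour, clipped at -4 and 4) for the named genes of the wider pathways, grouped by role, with groups in columns. Sparc, Gpc3 and Vegfd turn from low or near 0 on day 2 to high on day 28, Dusp6 is lowest on day 2, and Fos and Egr1 are highest in isolated hepatocytes.

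Markers of other cells that make or receive these ligands also differed between groups. The summed level of endothelial markers was 4143 to 5229 in cadaveric liver, 906 to 1344 in isolated hepatocytes and 269 to 359 over the constructs, and that of macrophage markers was 8661 to 15761 in cadaveric liver, 2412 to 2966 in isolated hepatocytes and 1275 to 2429 in the constructs. Of 10 cholangiocyte markers listed, 5 had a probe, and they summed to 710 to 1297 in cadaveric liver and 552 to 686 in isolated hepatocytes. The sum was 819 to 993 on day 2, 6515 to 11729 on day 15 and 8544 to 14258 on day 28. On day 2 Krt19, Krt7, Muc1 and Spp1 were not above background on any array, and Muc1 stayed so on days 15 and 28. Of the 5, Spp1, osteopontin, rose at least 226.5-fold and the keratin Krt19 at least 11.2-fold from day 2 to day 28. A linear sum follows its brightest genes, so the late sums do not stand for an even rise of the 5. The part of these cells in the Pdgfa, Fgf2 and Fgfr2 results was not tested.

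For each gene, the 3 genes with the most similar pattern were ranked by Pearson's r over the 19 samples, a description in which the samples fall into 5 groups. For Pdgfa these were Ube2q2l, Pmepa1 and Pfn2 (r from 0.984 to 0.985), and for Pdgfra Smoc2 (0.968), Itm2a (0.950) and Tmem178a (0.947). For Fgf2 they were Nexn (0.987), Lxn (0.982) and Plac9 (0.979), for Fgfr4 Dmgdh (0.979), Selenoo (0.975) and Sccpdh (0.974), and for Fgfr2 Fabp1 (0.924), C4bpb (0.915) and Agtr1a (0.909). The closest were looser for Fgf21, with Gadd45b (0.813), Ell2 (0.811) and Gadd45a (0.805), and for Pdgfc, with Lgalsl (0.799), Stt3a (0.783) and Usp11 (0.775). The genes nearest to Pdgfra and those nearest to Fgf2 had no name in common, which lists of 3 could hardly avoid. Pdgfra and Fgf2 themselves had r = 0.378 over the 19 samples and 0.711 over the 11 constructs.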

How the data were processed

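The authors hybridised RNA of each sample to RatRef-12 BeadChips, and deposited, per probe, the scanner's intensity with its detection p-value. They also deposited log2 values made with limma by background correction and quantile normalization. The deposited log2 values were used as given. Column names of the intensity table differed from the sample records on 14 of 24 arrays. Its detection p-values were therefore joined to the array with the nearest log2 values, recomputed from the intensities. The largest difference in a match was 0.026, against 0.84 or more for the next nearest array. A second log2 table, whose 24 columns name no sample, was not used.

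Technical duplicates were averaged, 842 control probes were left out and 22523 probes stayed, of which 13752 matched RefSeq by gene ID. Genes were tested where a probe was above background (detection p under 0.05) in at least 3 samples, each by its brightest probe. Linear models were fitted with limma 3.58.1 in R 4.3.3, over the 11 constructs (8283 genes) for comparisons between days and over all 19 samples (8825 genes) for the others, with Benjamini-Hochberg adjustment over all genes and a threshold of 0.05. All tests were two-sided, and the scripts were tested on simulated data. The number of arrays limits the precision. Members and gene lists were chosen with earlier results of these data known. Within each list, the genes with the lowest adjusted p in the F test (up to 4) and for isolated hepatocytes against cadaveric liver (up to 2) could be named. Quantile normalization forces the arrays to one distribution, so a shift of most transcripts would not be seen. Alternatives covered normalization, background correction, filters, probes, duplicates, fitted samples and each sample left out.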

Additional observations from a re-analysis of the deposited data

Results flagged for a closer look

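In 5 of the 32 groups of 4 samples that were checked, 1 sample's gap to its nearest neighbour took up more of the group's range than Dixon's 95% critical value allows, where chance marks about 1 in 20. In cadaveric liver replicate 4 Pdgfa was 8.99 against 8.07 to 8.21 in the other livers (ratio 0.847). In day 15 replicate 4 Fgf21 was 9.04 against 7.69 to 7.92 (ratio 0.832). In day 2 replicate 3 Pdgfc was 5.89 against 5.73 to 5.75 (ratio 0.885). Fgf2 was marked in cadaveric liver replicate 2 (4.38 against 4.59 to 4.62, ratio 0.865) and in isolated hepatocyte replicate 3 (4.40 against 4.52 to 4.54, ratio 0.858), in both cases among samples that were all below background.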

How the results depend on the processing

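Of 1309 member values under the alternatives, 1238 stayed on their side of the threshold (21 of them values without a call that changed sign), 49 lost the call, 20 gained it and 2 turned with a call. All 77 values kept direction and side when the background correction and normalization were recomputed from the intensities. Under median scaling, Pdgfc on day 15 against isolated hepatocytes turned from -0.04 to 0.44 (adjusted p = 0.00507) and Fgfr2 on day 28 from -0.15 to 0.48 (adjusted p = 0.0436). That scaling moved the median of all genes by 0.18 to 0.36 where constructs were set against a reference. It moved the share of calls that were higher from 50 to 25.8% for isolated hepatocytes against cadaveric liver, from 56.9, 54.2 and 51.6% to 71.2, 74.5 and 74.1% for days 2, 15 and 28 against cadaveric liver, and from 55.9, 50.2 and 47.2% to 75.7, 75.1 and 73.5% against isolated hepatocytes. The F test passed 3 genes by the methods' one-way ANOVA, where Fgf2 (adjusted p = 0.0568) and Fgfr4 (adjusted p = 0.0642) did not. Day 15 against day 2 passed 1 gene without background correction, 4 with median scaling and 1 with no filter on detection. The cause was not tested.

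With 1 sample left out, the F test passed 3 to 5 genes, day 15 against day 2 1 to 4, day 28 against day 15 1 to 3 and day 28 against day 2 4 to 5. Against cadaveric liver the counts were 3 to 3 in isolated hepatocytes and 5 to 6, 5 to 7 and 4 to 5 on days 2, 15 and 28, and against isolated hepatocytes 3 to 4, 3 to 5 and 4 to 5. Of 36 pairs of samples with the same replicate number, 5 had a correlation over 0.1, all between neighbouring days of culture. The highest (0.271) and the lowest (-0.276) were both between days 15 and 28. Whether the numbers pair the samples was not tested. With the replicate number as a block, the F test passed 4 genes (Fgfr4 not, adjusted p = 0.0727), day 15 against day 2 3, day 28 against day 15 2 and day 28 against day 2 4, and the counts against cadaveric liver were 3, 5, 6 and 5 and against isolated hepatocytes 3, 5 and 4. Signal near background limits Pdgfra, Fgf2 and Fgfr2, for which folds are bounds or understate the change.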

Other observations

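On day 2 against cadaveric liver, where 34.5% of all genes were higher and 26.1% lower, 5 of 6 tested genes of the Fgfr4 list were lower and none higher, while 9 of 13 tested genes of the Fgf21 list were higher and 1 lower. The difference between the lists was not tested. Platelet markers, 4 of 7 with a probe, summed to 248 to 477 in cadaveric liver and 92 to 97 in isolated hepatocytes. On days 2, 15 and 28 the sums were 98 to 104, 101 to 125 and 126 to 199. Day 28 was thus the highest day of the constructs, while Pdgfa did not differ between days 28 and 15 beyond its spread (adjusted p = 0.411). Within day 28, replicates 1, 2 and 3 had sums of 126, 140 and 199 at Pdgfa levels of 11.89, 11.37 and 11.36. Cadaveric liver had the higher sums at Pdgfa levels of 8.07 to 8.99. Gp9 and Ppbp were at background on every array. The part of platelets in the Pdgfa result was not tested. Proliferation markers summed to 2110 to 2465 on day 2 and 2667 to 3561 on day 28.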
